A study of Mus musculus with 9 samples.

Results

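The genes described here are 10 transcripts of the killing machinery of natural killer (NK) cells and cytotoxic T cells in mouse lymph nodes: the granzymes Gzma, Gzmb, Gzmc, Gzmk and Gzmm, perforin (Prf1), the granule protein gene Nkg7, and the NK cell receptor genes Ncr1, Klrb1c and Klrk1. They were taken by symbol from 37801 entries with 1 value per library, and each symbol was on 1 row. RNA-seq was done on lymph nodes of 3 groups of albino mice, with 3 libraries per group. The first group, Tyr-NrasQ61K MHCII-KO, carried an activated NrasQ61K transgene driven by the melanocyte promoter of tyrosinase, and its labels read Cre-positive and MHC-negative. The second, Tyr-NrasQ61K, carried the same transgene and was labelled Cre-negative and MHC-positive. The third, WT, lacked the transgene. The strain was given as FVB/NJ for WT and as a cross to FVB/NJ for both NrasQ61K groups, while the methods describe the WT controls as littermates without the transgene. How far the strain background differed between the groups was not tested. The cell type in which MHC class II was deleted, the age of the mice and whether each library came from a separate animal are not stated by the labels or the methods, so p-values measure the spread between these libraries.

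Cytotoxic lymphocytes kill by emptying granules onto a target cell. Perforin opens pores in the target membrane, and granzymes, a family of serine proteases, enter and cleave proteins that keep the cell alive. NK cells decide whether to release their granules from a balance of activating and inhibitory receptors, while CD8 T cells read peptides on MHC class I. In a resting lymph node both kinds of cell are a minority among B cells and naive T cells, and most of their effector genes are weakly expressed there.

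Values are FPKM, fragments scaled to transcript length and to library size, which compare levels between genes per unit length. The labels name nevus melanocytes as the source and the methods name lymph nodes. Lymphocyte markers were high, as 5 B cell markers summed to 240 to 535 FPKM and 5 T cell markers (Cd3e, Cd3d, Cd3g, Cd8a and Cd8b1) to 51.8 to 179 FPKM over the 9 libraries. Relative to WT replicate 1, depth was lowest in replicate 2 of both NrasQ61K groups, at 0.868 in MHCII-KO and 0.755 in Tyr-NrasQ61K, and 1.08 to 1.69 in the other 6 libraries. The same 2 libraries lay at one end of the first principal component of all genes, at 78.6 in MHCII-KO and 102 in Tyr-NrasQ61K, and WT replicates 1 and 3 at the other, at -74.1 and -73.4. The other 5 libraries lay between -30.9 and 21.8, and Tyr-NrasQ61K replicate 3 stood apart on the second component. For 7 of the 10 genes, Tyr-NrasQ61K replicate 2 was the lowest of the 9 libraries, and the highest value was in WT replicate 3 for 5 genes and in WT replicate 1 for 3. In bulk RNA, fewer cytotoxic cells and less RNA per cell cannot be told apart.

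The 10 genes lie in the mouse build mm10 on 5 chromosomes, 2 on each. Gzmc (ENSMUSG00000079186) occupies chr14:56231441-56234656 and Gzmb (ENSMUSG00000015437) chr14:56258838-56262260, both on the minus strand and 24181 bases apart. Gzma is at chr13:113093825-113100981 and Gzmk at chr13:113171608-113225908, also on the minus strand. Gzmm (chr10:79689020-79695261) and Prf1 (chr10:61297833-61304680) are on the plus strand of chromosome 10, and Ncr1 (chr7:4337724-4345164) and Nkg7 (chr7:43437073-43438249) on the plus strand of chromosome 7. Klrb1c (chr6:128778485-128789215) and Klrk1 (chr6:129610323-129623864) belong to the NK gene complex on the minus strand of chromosome 6. Gzmk overlaps Esm1 on the opposite strand and Klrb1c overlaps Gm44511 on the same strand. Whether counting used strand is not stated, so reads of these overlapping genes may not be separable.

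Gzmc and Gzmb are neighbors with different values between the 3 groups, and Gzme, a further gene of their cluster, shares more transcript sequence with Gzmc than any other gene of the families compared. Of 845 stretches of 50 bases in the Gzmc transcript, 35 were also found in another gene of these families, 32 of them in Gzme, whereas none of the 1387 stretches of Gzmb were shared. The 250 bases before the RefSeq start of each gene are therefore shown (RefSeq, GRCm38.p6), 5′ to 3′ along the gene on the minus strand, with capitals on a match to the Runx motif TGTGGTT or the AP-1 motif TGANTCA on either strand.
Gzmc, chr14:56234658-56234907: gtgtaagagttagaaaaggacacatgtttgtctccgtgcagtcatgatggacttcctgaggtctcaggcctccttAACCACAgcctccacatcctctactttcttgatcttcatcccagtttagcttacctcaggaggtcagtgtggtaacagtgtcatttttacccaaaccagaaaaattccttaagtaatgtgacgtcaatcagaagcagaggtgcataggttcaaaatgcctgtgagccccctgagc
Gzmb, chr14:56262335-56262584: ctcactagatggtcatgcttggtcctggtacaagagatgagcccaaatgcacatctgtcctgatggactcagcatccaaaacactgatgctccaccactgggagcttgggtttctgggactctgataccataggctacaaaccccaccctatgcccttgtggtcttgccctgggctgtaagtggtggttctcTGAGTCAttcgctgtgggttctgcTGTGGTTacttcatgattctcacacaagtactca
Gzme, chr14:56120626-56120875: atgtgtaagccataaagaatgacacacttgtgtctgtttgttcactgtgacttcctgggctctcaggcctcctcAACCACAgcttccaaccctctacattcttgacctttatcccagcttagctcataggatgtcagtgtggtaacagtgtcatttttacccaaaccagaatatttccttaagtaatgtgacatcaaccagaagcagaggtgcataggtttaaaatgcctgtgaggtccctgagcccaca
A Runx match was present in the same 250 bases of 5 of the 10 genes (Gzma, Gzmb, Gzmc, Ncr1 and Klrk1), beside 4.46% of 27025 promoters in all. It began 175 bases before the start in Gzmc and 176 in Gzme, and 34 in Gzmb. The T-box motif TCACACC was in 2 of the 10 (Gzmk and Nkg7) beside 3.31% of promoters, and the AP-1 motif in 1 of the 10 (Gzmb) beside 6.87%. No match was found in the 10 to the Ets motif ACAGGAA, present in 7.05% of promoters, or to the TATA box TATAAA, present in 13% of promoters. A match is a run of letters and was not tested as a binding site.

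Gzmc had the clearest separation between groups. Granzyme C is a mouse granzyme made mainly by strongly activated cytotoxic lymphocytes. Its level was 0.206 FPKM in 1 Tyr-NrasQ61K MHCII-KO library and listed at 0 in the other 2, and it was 0.233, 0 and 0.324 FPKM in the Tyr-NrasQ61K libraries, against 2.26, 1.92 and 1.62 FPKM in the WT libraries. All 6 NrasQ61K libraries were thus below all 3 WT libraries. On the scale of log2(FPKM + 1), which understates the change of low genes, the difference was -1.46 (SE 0.186) for MHCII-KO minus WT and -1.31 (SE 0.186) for Tyr-NrasQ61K minus WT. These differences from WT were among the values by which the genes were chosen, so they are a description and carry no test. Gzmc also passed the filter on low values (3 or more libraries at 1 FPKM or above) only through its 3 WT libraries.

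**Figure D1:**
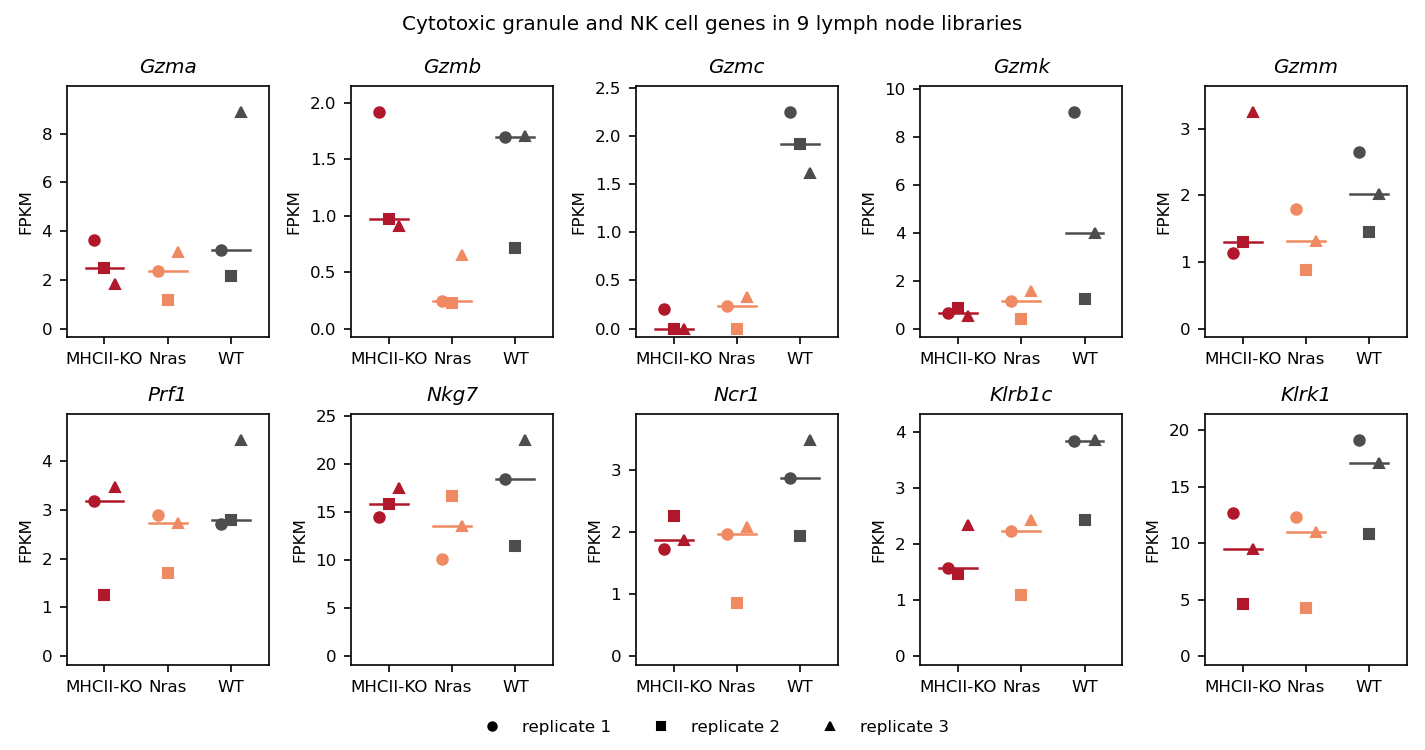
FPKM (y axis, from 0) of the 10 genes in each library, for Tyr-NrasQ61K MHCII-KO (MHCII-KO), Tyr-NrasQ61K (Nras) and WT. Points are libraries, shaped by replicate number, and lines are group medians. Gzmc is between 1.62 and 2.26 FPKM in WT and at most 0.324 FPKM elsewhere, while most other genes overlap between the groups.

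The other granzymes did not separate in this way. Gzma, a tryptase-like granzyme, was at 3.65, 2.47 and 1.83 FPKM in MHCII-KO and 2.38, 1.16 and 3.16 FPKM in Tyr-NrasQ61K, against 3.24, 2.14 and 8.90 FPKM in WT. Only WT replicate 3 stood above the rest. Gzmk, also tryptase-like and typical of memory CD8 T cells, was at 0.655, 0.838 and 0.507 FPKM in MHCII-KO and 1.16, 0.382 and 1.58 FPKM in Tyr-NrasQ61K, against 9.03, 1.21 and 3.98 FPKM in WT. The MHCII-KO libraries lay below all WT libraries, whereas Tyr-NrasQ61K replicate 3 lay above WT replicate 2. The difference in Gzmk was as large as that in Gzmc, at -1.53 (SE 0.495) for MHCII-KO minus WT and -1.28 (SE 0.495) for Tyr-NrasQ61K minus WT, but its standard error was larger because the WT libraries differed so much among themselves.

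Gzmm, a granzyme that cleaves after methionine and is typical of NK cells, was at 1.14, 1.30 and 3.25 FPKM in MHCII-KO and 1.79, 0.878 and 1.31 FPKM in Tyr-NrasQ61K, against 2.66, 1.45 and 2.02 FPKM in WT. The groups overlapped, with the highest value in MHCII-KO replicate 3. Gzmb, which cleaves after aspartate and triggers apoptosis, was at 1.92, 0.974 and 0.906 FPKM in MHCII-KO and 0.247, 0.225 and 0.651 FPKM in Tyr-NrasQ61K, against 1.69, 0.717 and 1.70 FPKM in WT. The Tyr-NrasQ61K libraries were below all others, and the MHCII-KO libraries overlapped with WT, with the highest value in MHCII-KO replicate 1 and WT replicate 2 below every MHCII-KO library. Its difference from WT was -0.06 (SE 0.262) in MHCII-KO and -0.77 (SE 0.262) in Tyr-NrasQ61K.

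Set against the 4 other granzymes in the same library, Gzmc took a smaller part in the NrasQ61K groups. Its share of the summed FPKM of the 5 granzymes was 2.72%, 0% and 0% in MHCII-KO and 4.01%, 0% and 4.61% in Tyr-NrasQ61K, against 12%, 25.8% and 8.9% in WT. It was the lowest of the 5 in all 6 NrasQ61K libraries, whereas in the WT libraries it ranked 4, 2 and 5 of 5. On the log2(FPKM + 1) scale, Gzmc minus the mean of the other 4 was -1.13, -1.21 and -1.28 in MHCII-KO and -0.87, -0.70 and -0.94 in Tyr-NrasQ61K, against -0.47, 0.33 and -0.77 in WT. On this measure all MHCII-KO libraries were below WT, whereas Tyr-NrasQ61K and WT overlapped, with WT replicate 3 below Tyr-NrasQ61K replicate 2. The WT libraries also differed in their granzyme sum, 18.9, 7.43 and 18.2 FPKM, while Gzmc itself varied little among them. The sums were 7.57, 5.58 and 6.5 FPKM in MHCII-KO and 5.81, 2.65 and 7.03 FPKM in Tyr-NrasQ61K.

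**Figure D2:**
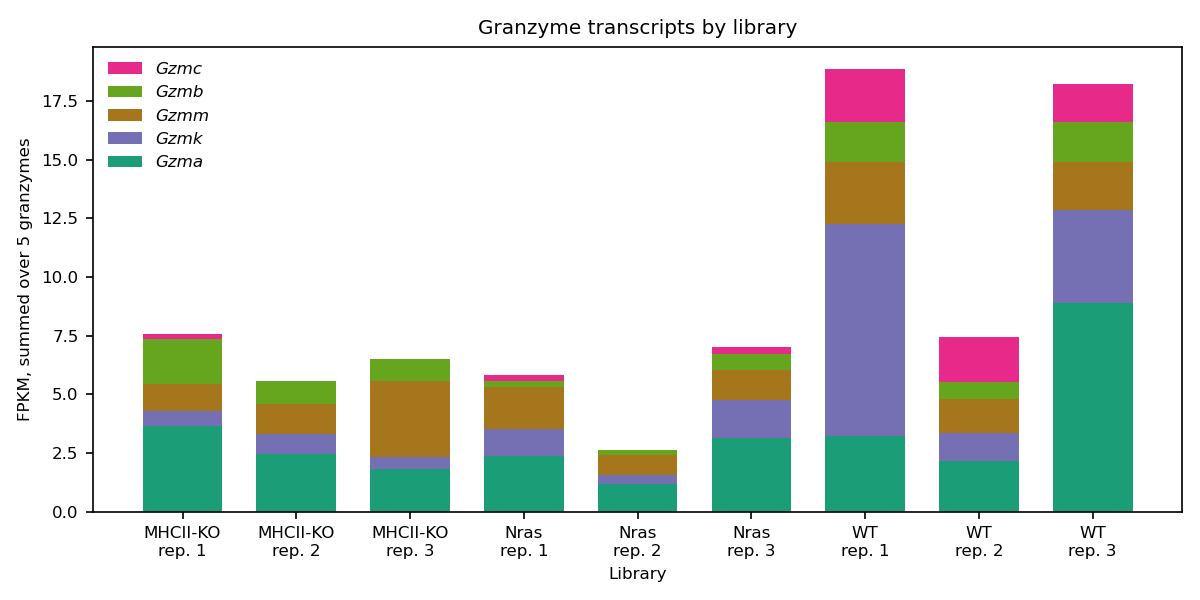
Stacked bars of FPKM of Gzma, Gzmk, Gzmm, Gzmb and Gzmc (y axis, from 0) in each of the 9 libraries, MHCII-KO left, Tyr-NrasQ61K (Nras) in the middle and WT right. Gzmc is the top segment, 8.9% to 25.8% of the bar in WT and at most 4.61% in the NrasQ61K libraries, and WT replicate 2 has a bar as short as theirs.

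The 5 further granzyme genes of the same cluster on chromosome 14 were near 0 throughout. Gzmd, Gzme, Gzmf and Gzmg reached at most 0.107 FPKM in any library, Gzmn was listed at 0 in all 9, and none passed the filter on low values. Gzme, whose transcript is closest to that of Gzmc, was listed at 0 in all 6 NrasQ61K libraries and at 0.0686, 0.107 and 0.0504 FPKM in WT. Reads from the shared stretches of Gzmc and Gzme, and of Klrb1c and Klrb1a (107 of 3003 stretches of Klrb1c), cannot be placed with certainty.

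Perforin and Nkg7 were lower on average in the NrasQ61K groups, with overlap. Prf1 was at 3.19, 1.26 and 3.47 FPKM in MHCII-KO and 2.89, 1.70 and 2.74 FPKM in Tyr-NrasQ61K, against 2.71, 2.79 and 4.44 FPKM in WT. Its values overlapped and its difference from WT was -0.28 (SE 0.304) in MHCII-KO and -0.32 (SE 0.304) in Tyr-NrasQ61K. Nkg7, which encodes a granule membrane protein needed for efficient granule release, was the highest of the 10 by mean FPKM, at 14.5, 15.9 and 17.5 FPKM in MHCII-KO and 10.1, 16.7 and 13.5 FPKM in Tyr-NrasQ61K, against 18.5, 11.5 and 22.6 FPKM in WT. WT replicate 2 was below every MHCII-KO library, and the difference from WT was -0.08 (SE 0.286) in MHCII-KO and -0.33 (SE 0.286) in Tyr-NrasQ61K.

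The receptor genes were lower on average in the NrasQ61K groups, with overlap. Ncr1, which encodes the activating receptor NKp46 and marks NK cells, was at 1.73, 2.26 and 1.88 FPKM in MHCII-KO and 1.97, 0.851 and 2.07 FPKM in Tyr-NrasQ61K, against 2.86, 1.94 and 3.48 FPKM in WT. Klrb1c, which encodes the NK1.1 antigen, was at 1.58, 1.46 and 2.34 FPKM in MHCII-KO and 2.23, 1.09 and 2.43 FPKM in Tyr-NrasQ61K, against 3.83, 2.42 and 3.86 FPKM in WT. The MHCII-KO libraries were just below the lowest WT library, and Tyr-NrasQ61K replicate 3 was just above it. Klrk1, which encodes the activating receptor NKG2D of NK cells and CD8 T cells, was at 12.7, 4.60 and 9.46 FPKM in MHCII-KO and 12.3, 4.31 and 11.0 FPKM in Tyr-NrasQ61K, against 19.2, 10.9 and 17.1 FPKM in WT. In both NrasQ61K groups replicate 2, the shallow library, had less than 5 FPKM. The differences for Ncr1, Klrb1c and Klrk1 were -0.33, -0.64 and -0.81 for MHCII-KO minus WT and -0.53, -0.60 and -0.79 for Tyr-NrasQ61K minus WT, with SE 0.248, 0.251 and 0.449.

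All 10 genes had a difference below 0 in both comparisons with WT, which share the 3 WT libraries. The median difference was -0.42 in MHCII-KO and -0.65 in Tyr-NrasQ61K, beside -0.22 and -0.12 over all 16587 genes tested, of which 67.5% and 59.1% were below 0. After median-ratio scaling, which moved the median of all genes to 0.01 in MHCII-KO and 0.03 in Tyr-NrasQ61K, 3 of the 10 (Gzmb, Gzmm and Nkg7) turned to above 0 in MHCII-KO, and all 10 stayed below 0 in Tyr-NrasQ61K. Without replicate 2 of both NrasQ61K groups, 7 of 10 were below 0 in MHCII-KO and 10 of 10 in Tyr-NrasQ61K, with medians of -0.42 and -0.41 and no gene called. In limma with Benjamini-Hochberg adjustment over all genes, Gzmc passed an adjusted p of at most 0.05 in each comparison, 1 of 10 beside 0.145% of all genes in MHCII-KO against WT and 0.235% in Tyr-NrasQ61K against WT. Without any 1 of the 9 libraries it no longer passed in Tyr-NrasQ61K against WT, and in MHCII-KO against WT it passed only without Tyr-NrasQ61K replicate 2 or 3. Every library was lower without overlap for 3 of 10 genes in MHCII-KO against WT (Gzmc, Gzmk and Klrb1c) beside 23.4% of all genes, and for 2 of 10 in Tyr-NrasQ61K against WT (Gzmb and Gzmc) beside 10.5%. Since the 10 genes were selected on these 2 comparisons, the pass of Gzmc is a description and not a test, and nothing is read from the counts.

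The comparison of Tyr-NrasQ61K MHCII-KO with Tyr-NrasQ61K was not itself used to choose the genes, but it shares its libraries with the comparisons with WT that were. Its p-values are therefore not independent of that choice. It sets nodes labelled Cre-positive and MHC-negative against nodes labelled Cre-negative and MHC-positive, all with the transgene, so Cre and the loss of MHC class II cannot be told apart. None of the 10 was called by limma, with an adjusted p of 1 for each, beside 0.0482% of all genes. At an unadjusted p under 0.05 there was 1, Gzmb, which was higher in MHCII-KO, beside 0.235% of all genes higher and 1.28% lower at that threshold. Gzmb passed the filter on low values through MHCII-KO replicate 1 and WT replicates 1 and 3, and through no Tyr-NrasQ61K library. Gzmb was 0.71 higher on the log2(FPKM + 1) scale (95% interval 0.11 to 1.31). Its mean was 1.27 ± 0.565 FPKM in MHCII-KO and 0.375 ± 0.24 FPKM in Tyr-NrasQ61K (SD, n = 3 each), and the unadjusted p of the limma fit was 0.0261 (adjusted p = 1). The 3 MHCII-KO libraries were above the 3 Tyr-NrasQ61K libraries, which held for 0.729% of all genes, with 3.07% of all genes separated in the other direction. The unadjusted limma p was 0.101 without MHCII-KO replicate 1, 0.0719 without Tyr-NrasQ61K replicate 1, 0.0699 without Tyr-NrasQ61K replicate 2 and 0.0771 without replicate 2 of both groups.

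Gzmc, next to Gzmb on the chromosome, differed by -0.15 between these groups (95% interval -0.57 to 0.28). For Prf1 the difference was 0.04 (95% interval -0.66 to 0.73), for Ncr1 0.20 (-0.37 to 0.77) and for Klrk1 -0.02 (-1.052 to 1.003). The intervals of the remaining 5 genes also held 0, with differences from -0.25 (Gzmk) to 0.26 (Gzmm). These intervals leave room for differences of up to 1.38 in size (Gzmk, -1.38 to 0.88), so a p that missed the threshold does not show equal levels. Of the 10 genes 6 were above 0 and the median difference was 0.11, beside -0.08 over all genes. Without replicate 2 of both groups 4 of the 10 were above 0 and the median was -0.06.

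**Figure D3:**
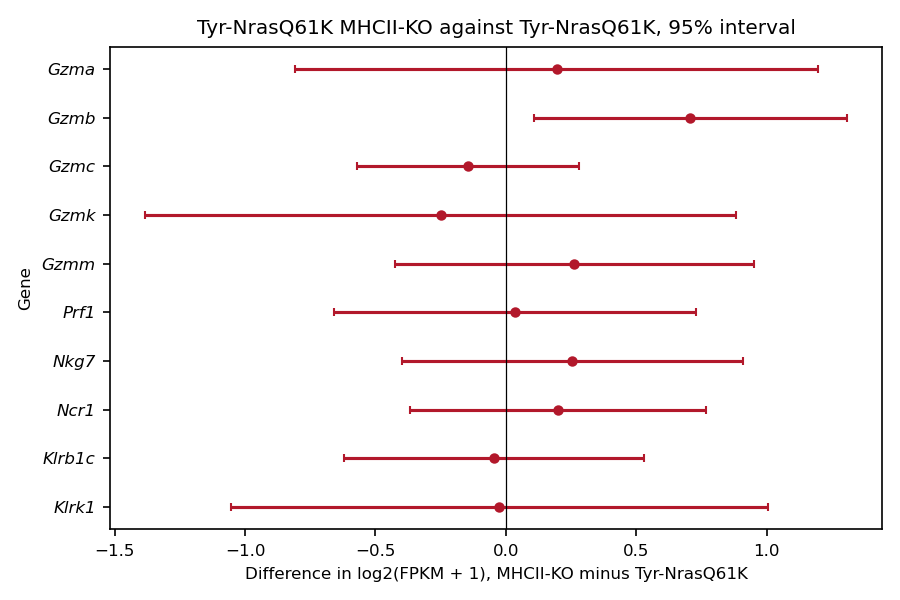
Difference in log2(FPKM + 1), MHCII-KO minus Tyr-NrasQ61K (x axis), for each of the 10 genes (y axis). Points are limma estimates and bars 95% intervals. Only the interval of Gzmb, 0.11 to 1.31, lies to one side of 0.

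Most genes that store, activate and release granzymes had differences below 0 against WT in both NrasQ61K groups, as did most of all genes. Of 14 such genes 13 were tested and none was called in any comparison by limma (lowest adjusted p = 0.309). Unadjusted, 4 of the 13 were lower at p under 0.05 in MHCII-KO against WT, beside 11.5% of all genes, and 3 of the 13 in Tyr-NrasQ61K against WT, beside 8.43%. Srgn, the proteoglycan that binds granzymes inside the granule, had 82.4, 51.5 and 73.9 FPKM in MHCII-KO and 80.3, 50.3 and 99.6 FPKM in Tyr-NrasQ61K, against 179.8, 92.2 and 163.7 FPKM in WT. Srgn and the protease gene Ctsl had means of 97.1 and 94.3 FPKM over the 9 libraries, beside 2.80 FPKM for Prf1. Which cells carried the transcripts of this list was not tested, and they need not be cytotoxic cells. Rab27a, which tethers granules for release, had 3.73, 2.30 and 3.97 FPKM in MHCII-KO and 3.65, 2.48 and 4.25 FPKM in Tyr-NrasQ61K, against 6.57, 4.59 and 6.74 FPKM in WT. Neither Rab27a nor Stx11, a syntaxin of granule release, overlapped between WT and either NrasQ61K group. Such a separation below WT was found for 23.4% of all genes in MHCII-KO against WT and 10.5% in Tyr-NrasQ61K against WT. Of the 13 genes, 12 were below 0 in MHCII-KO against WT, beside 67.5% of all genes, and 11 in Tyr-NrasQ61K against WT, beside 59.1%. The median difference of the 13 genes was -0.67 in MHCII-KO against WT, beside -0.22 over all genes. It was -0.61 in Tyr-NrasQ61K against WT, beside -0.12 over all genes, and -0.06 between the NrasQ61K groups, beside -0.08.

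Serpins that inhibit granzymes were below WT on average and were not called. Serpinb6b, which inhibits granzyme A in the mouse, had 9.45, 3.32 and 6.04 FPKM in MHCII-KO and 8.55, 1.89 and 9.72 FPKM in Tyr-NrasQ61K, against 36.2, 19.0 and 36.6 FPKM in WT. Neither NrasQ61K group overlapped with WT, a separation that 23.4% of all genes had in MHCII-KO against WT and 10.5% in Tyr-NrasQ61K against WT. The difference was -2.15 (SE 0.552, limma adjusted p = 0.257) in MHCII-KO and -2.19 (SE 0.552, limma adjusted p = 0.206) in Tyr-NrasQ61K. Serpinb9, an inhibitor of granzyme B, had 9.67, 5.32 and 6.93 FPKM in MHCII-KO and 9.58, 3.27 and 10.5 FPKM in Tyr-NrasQ61K, against 23.5, 12.1 and 26.4 FPKM in WT. Both are also made by cells that need protection from granzymes, such as dendritic cells. The list also held Serpina3g, a serpin known to inhibit cathepsins rather than granzymes. With it, all 3 serpins that passed the filter were lower at an unadjusted limma p under 0.05 in both comparisons, beside 11.5% of all genes in MHCII-KO against WT and 8.43% in Tyr-NrasQ61K against WT.

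Other NK cell receptors were read from 31 genes, of which 25 were tested and none called (lowest adjusted p = 0.248). Below 0 were 22 of 25 in MHCII-KO against WT, beside 67.5% of all genes, and 24 of 25 in Tyr-NrasQ61K against WT, beside 59.1%. After median-ratio scaling 18 of 25 and 20 of 25 were below 0. Without that scaling the medians of the 25 were -0.51 and -0.46, beside -0.22 and -0.12 over all genes. Between the NrasQ61K groups the median was 0.03, beside -0.08 over all genes. Cd160, a receptor of NK cells and CD8 T cells, had 1.69, 1.15 and 1.98 FPKM in MHCII-KO and 1.45, 1.47 and 1.75 FPKM in Tyr-NrasQ61K, against 5.34, 2.22 and 4.08 FPKM in WT. Neither NrasQ61K group overlapped with WT, a separation that 23.4% of all genes had in MHCII-KO against WT and 10.5% in Tyr-NrasQ61K against WT. The difference of Cd160 was -0.86 (SE 0.259, limma adjusted p = 0.322) in MHCII-KO and -0.88 (SE 0.259, limma adjusted p = 0.248) in Tyr-NrasQ61K. Slamf7, among the most abundant of these receptors and also made by B cells and plasma cells, was within 0.17 of WT in both groups.

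Of 16 tested adaptors and cytokine receptors of cytotoxic cells, 12 were below 0 in MHCII-KO against WT, beside 67.5% of all genes, and 9 in Tyr-NrasQ61K against WT, beside 59.1% of all genes, and none was called (lowest adjusted p = 0.286). Tyrobp, an adaptor that NK cells share with macrophages, had 97.0, 148.2 and 132.2 FPKM in MHCII-KO and 136.0, 104.6 and 126.0 FPKM in Tyr-NrasQ61K, against 116.5, 53.0 and 122.8 FPKM in WT. Sh2d1a, the adaptor SAP of T cells and NK cells, had 4.94, 1.96 and 4.16 FPKM in MHCII-KO and 4.55, 2.41 and 5.50 FPKM in Tyr-NrasQ61K, against 9.47, 6.98 and 11.4 FPKM in WT. Tyrobp overlapped between the groups. Sh2d1a lay below WT without overlap in both NrasQ61K groups, as did 23.4% of all genes in MHCII-KO and 10.5% in Tyr-NrasQ61K. Its adjusted p by limma was 0.313 in MHCII-KO and 0.286 in Tyr-NrasQ61K against WT.

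Of 11 tested transcription factors of cytotoxic cells none was called (lowest adjusted p = 0.222). Runx3, which drives the CD8 T cell and NK cell programs, was above WT on average, with 9.11, 8.99 and 9.96 FPKM in MHCII-KO and 10.1, 10.8 and 16.5 FPKM in Tyr-NrasQ61K, against 5.74, 8.93 and 6.50 FPKM in WT. All NrasQ61K libraries were above all WT libraries, a separation that 7.97% of all genes had in MHCII-KO against WT and 8.18% in Tyr-NrasQ61K against WT. The unadjusted limma p of Runx3 was 0.0139 in Tyr-NrasQ61K against WT, where 6.79% of all genes were higher at p under 0.05, and 0.144 in MHCII-KO against WT, where 3.57% were. Ikzf2 and Id2 were below all WT libraries in every NrasQ61K library, beside 23.4% of all genes in MHCII-KO against WT and 10.5% in Tyr-NrasQ61K against WT. Id2, which NK cells and innate lymphoid cells need, had 18.5, 8.53 and 15.7 FPKM in MHCII-KO and 18.8, 5.09 and 19.9 FPKM in Tyr-NrasQ61K, against 40.4, 25.9 and 40.9 FPKM in WT.

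Most secreted effectors and the cytokines that drive cytotoxic cells had differences below 0 against WT, and none was called. Of 8 tested ligands, cytokines and chemokines, 7 were below 0 in MHCII-KO against WT, beside 67.5% of all genes. In Tyr-NrasQ61K against WT 6 were below 0, beside 59.1% of all genes. The medians were -0.54 and -0.53, beside -0.22 and -0.12 over all genes. Ccl3, a chemokine that draws in leukocytes and is also made by macrophages, was above WT on average, at 2.61, 1.38 and 4.11 FPKM in MHCII-KO and 4.18, 0.684 and 3.37 FPKM in Tyr-NrasQ61K, against 0.869, 0.33 and 1.64 FPKM in WT (limma adjusted p = 0.35 in MHCII-KO against WT and 0.377 in Tyr-NrasQ61K against WT). Ccl5, a chemokine of memory and effector T cells and NK cells, had 44.6, 16 and 46.2 FPKM in MHCII-KO and 40.6, 13.5 and 61.2 FPKM in Tyr-NrasQ61K, against 74.5, 55.7 and 88.2 FPKM in WT. Xcl1, the chemokine by which these cells attract cross-presenting dendritic cells, had 4.06, 1.27 and 3.85 FPKM in MHCII-KO and 2.92, 1.85 and 3.69 FPKM in Tyr-NrasQ61K, against 9.45, 3.63 and 11.1 FPKM in WT. Ccl5 overlapped with WT only in Tyr-NrasQ61K, and Xcl1 in both NrasQ61K groups, beside 23.4% of all genes lower without overlap in MHCII-KO against WT. Il15, the cytokine that NK cells need to survive, had 3.42, 1.2 and 2.05 FPKM in MHCII-KO and 2.16, 1.01 and 2.83 FPKM in Tyr-NrasQ61K, against 4.79, 3.33 and 4.81 FPKM in WT, with a limma adjusted p of 0.329 in MHCII-KO against WT and 0.316 in Tyr-NrasQ61K against WT. Of 9 ligands of NKG2D, 5 were found among the entries and only H60b passed the filter. It was at 3.81, 2.68 and 3.98 FPKM in MHCII-KO and 3.31, 3.15 and 11.7 FPKM in Tyr-NrasQ61K, against 1.10, 2.97 and 1.99 FPKM in WT. H60b was not called (limma adjusted p = 0.449 in MHCII-KO against WT and 0.323 in Tyr-NrasQ61K against WT). Below the filter, 3 ligands had lower means in MHCII-KO and Tyr-NrasQ61K than in WT. These were Raet1c (0.284 and 0.23 against 0.941 FPKM), Raet1d (0.124 and 0.172 against 0.453 FPKM) and H60c (0.115 and 0 against 0.25 FPKM). Ulbp1 was listed at 0 in all 9 libraries.

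**Figure D4:**
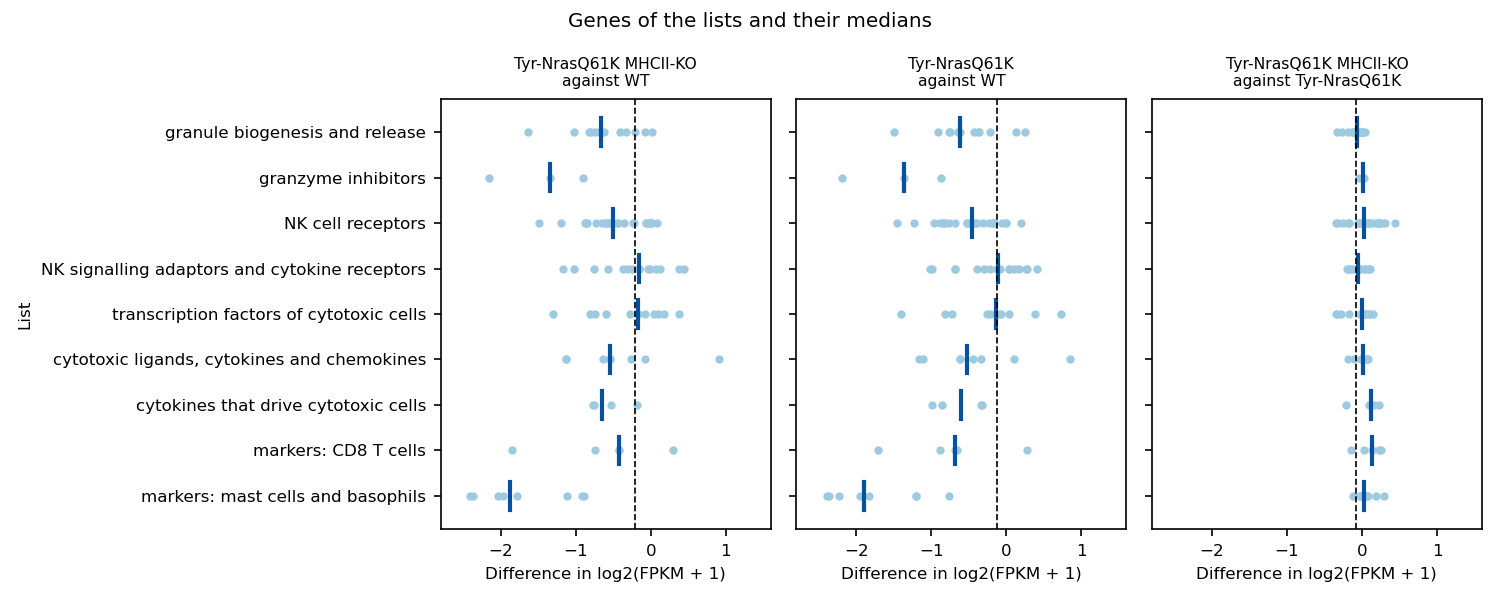
Differences in log2(FPKM + 1) (x axis) of the tested genes of 9 lists (y axis) in 3 comparisons, with a dark bar at each list's median and a dashed line at the median of all 16587 genes. NK cell receptors have medians of -0.51 and -0.46 against WT and 0.03 between the NrasQ61K groups. In both comparisons with WT the median of mast cell and basophil markers lies furthest from the dashed line.

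Markers of cells that could carry these transcripts also differed on average between the groups. The 6 NK cell markers, 2 of which (Ncr1 and Klrb1c) are among the 10 genes, summed to 11.1, 8.11 and 16.5 FPKM in MHCII-KO and 14.2, 8.64 and 13.2 FPKM in Tyr-NrasQ61K, against 18.5, 14.2 and 20.5 FPKM in WT. The differences of all 6 were below 0 in both comparisons with WT, beside 67.5% of all genes in MHCII-KO and 59.1% in Tyr-NrasQ61K, and none was called. The 5 markers listed for CD8 T cells summed to 51.8 to 104 FPKM in MHCII-KO and 52.7 to 131 FPKM in Tyr-NrasQ61K, against 112 to 179 FPKM in WT. Of these, 4 of 5 were below 0 in each comparison with WT, beside the same shares of all genes, and Cd3e was above 0. Cd3e, Cd3d and Cd3g are made by all T cells, so the sum is not particular to CD8 T cells. Mean FPKM in MHCII-KO, Tyr-NrasQ61K and WT was 15.9, 23.42 and 57.1 for Cd3g. It was 14.86, 12.35 and 19.8 for Cd8a, and 18.33, 15.4 and 23.73 for Cd8b1. Cd4 was at 91.4, 63.8 and 105.3 FPKM in MHCII-KO and 105.7, 56.0 and 175.8 FPKM in Tyr-NrasQ61K, against 59.0, 30.4 and 59.8 FPKM in WT, with a limma adjusted p of 0.37 in MHCII-KO against WT and 0.328 in Tyr-NrasQ61K against WT. Macrophages and dendritic cells express Cd4 too, and the other 3 CD4 T cell markers (Cd5, Il7r and Cd40lg) were below 0 in both comparisons. The 4 together summed to 75.8 to 133 FPKM in MHCII-KO and 68 to 209 FPKM in Tyr-NrasQ61K, against 62.6 to 107 FPKM in WT, with Cd4 the largest part of the sum in every library of all groups. The 5 B cell markers summed to 265 to 397 FPKM in MHCII-KO and 240 to 511 FPKM in Tyr-NrasQ61K, against 408 to 535 FPKM in WT.

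Mast cells and basophils hold granule proteases related to granzymes, and their genes lie in the same cluster on chromosome 14. Their 9 markers summed to 37.2, 21.3 and 34.9 FPKM in MHCII-KO and 41.9, 12 and 41.7 FPKM in Tyr-NrasQ61K, against 186, 60.8 and 242 FPKM in WT. All 8 that passed the filter were below 0 in both comparisons with WT, beside 67.5% of all genes in MHCII-KO and 59.1% in Tyr-NrasQ61K. Their medians were -1.88 and -1.89. The basophil marker Mcpt8 was near 0 throughout, listed at 0 in all NrasQ61K libraries, against 0.152, 0 and 0.191 FPKM in WT. Of the cluster's proteases, Cma1, the mast cell chymase, had 8.66, 3.45 and 7.16 FPKM in MHCII-KO and 9.24, 2.46 and 8.99 FPKM in Tyr-NrasQ61K, against 43.3, 13.8 and 73.0 FPKM in WT (limma adjusted p = 0.289 in MHCII-KO against WT and 0.227 in Tyr-NrasQ61K against WT). Among WT libraries the sum of these markers was lowest in replicate 2, as were 8 of the 10 genes. Gzmc was at 1.92 FPKM in that library, the middle of its WT values. The 4 plasmacytoid dendritic cell markers summed to 11.2 to 25.3 FPKM in MHCII-KO and 11.9 to 27.1 FPKM in Tyr-NrasQ61K, against 25.8 to 55.4 FPKM in WT, and the 3 markers of gamma delta T cells and innate lymphoid cells to 2.23 to 4.13 FPKM in MHCII-KO and 1.01 to 6.84 FPKM in Tyr-NrasQ61K, against 7.02 to 11.8 FPKM in WT. The part of these cell types in the differences of the 10 genes was not tested. Dct, a melanocyte enzyme and the one called gene of all lists apart from Gzmc, had 0.847, 2.10 and 3.25 FPKM in MHCII-KO and 5.81, 4.16 and 2.77 FPKM in Tyr-NrasQ61K, against 0.0509, 0 and 0.0319 FPKM in WT (limma adjusted p = 0.0431 in Tyr-NrasQ61K against WT and 0.201 in MHCII-KO against WT).

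**Figure D5:**
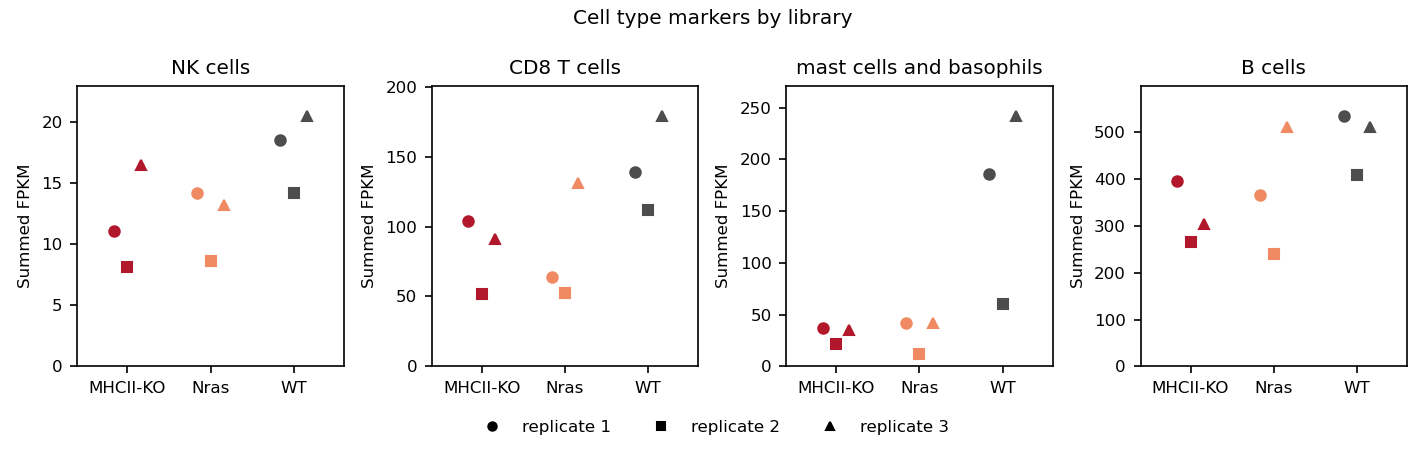
Summed FPKM (y axes, from 0) of markers of NK cells, CD8 T cells, mast cells and basophils, and B cells in each library of MHCII-KO, Tyr-NrasQ61K (Nras) and WT, shaped by replicate number. The CD8 T cell panel includes Cd3e, Cd3d and Cd3g, which all T cells make. Mast cell and basophil markers are between 12 and 41.9 FPKM in the NrasQ61K libraries and between 60.8 and 242 FPKM in WT.

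The 10 genes did not share a single pattern over the 9 libraries. Of the other 9, Gzmk was the most like Gzmc on the log2(FPKM + 1) scale (Pearson r = 0.813), followed by Klrb1c (r = 0.794), and Nkg7 the least (r = 0.182). These points share libraries and groups, so r describes likeness and has no p. Among all tested genes other than those with a clone or predicted name, the 5 most like Gzmc were Gnai1 (r = 0.99), Npr3, Ccl17 and Gbp1 (r = 0.983 each) and Ghr (r = 0.977), none of them a gene of cytotoxic granules. Ccl17, a chemokine made by dendritic cells, had 0.658, 0 and 0.172 FPKM in MHCII-KO and 0.642, 0.379 and 1.02 FPKM in Tyr-NrasQ61K, against 6.48, 5.22 and 7.08 FPKM in WT, and like Gzmc it was even among the WT libraries. For Ncr1 the most alike were Tmtc3 (r = 0.988), Clec1a (r = 0.975) and SNORA42 (r = 0.968), with Maob (r = 0.967) and Slc25a24 (r = 0.965), genes that are low in Tyr-NrasQ61K replicate 2 and high in WT replicates 1 and 3.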

How the data were processed

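Total RNA of mouse lymph nodes was sequenced by the authors on 1 flow cell of a Genome Analyzer IIx. FPKM values as deposited by the authors were used, with 1 column for each of 9 libraries. Tools named in the submitters' processing notes are TopHat, Cufflinks and Cuffdiff, and the build is mm10. Not given in the sources used here are their versions, the strand of the kit and the read numbers. Because FPKM hold no counts, depth was estimated only relative to WT replicate 1, from ratios of low FPKM between libraries, and the peak of that ratio was weak for Tyr-NrasQ61K replicate 3. A further 27 columns of per-library values were not used, and 18 of 37819 entries with several values per library were left out. Tables of the authors' own comparisons hold fold changes and p-values and were not used.

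The 16587 genes that reached 1 FPKM in 3 or more of the 9 libraries entered the tests. The fit of log2(FPKM + 1) used limma 3.58.1 in R 4.3.3, with 3 group means, no term for replicate number and a mean-variance trend. A gene was called where its p, adjusted over all genes by Benjamini-Hochberg, did not exceed 0.05. The fit was tested on simulated data. Alternatives changed the pseudocount, filter, scaling, weights, trend, block and the libraries used. Genes and coordinates were matched to GENCODE M21, and promoters to RefSeq. Of the list symbols, 6 were not found.

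The 10 genes and all lists were chosen with earlier results of these data known. Named were all 10 genes and, of each other list, called genes, otherwise genes from the 4 of smallest unadjusted p and the 3 of highest mean FPKM, and the 5 genes most like Gzmc and Ncr1. Python 3.11.15, numpy 2.4.6, pandas 2.3.3 and matplotlib 3.10.9 were used.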

Additional observations from a re-analysis of the deposited data

How the results depend on the processing

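The count of called genes among the 10, a description since the genes were chosen on the comparisons with WT, was 1 (Gzmc) in each of these comparisons. It was 0 in both with a pseudocount of 0.1 or 0.5, with only the 2 groups compared, and without replicate 2 of both NrasQ61K groups. It was 6 in both with library weights, under which 5076 and 7407 of all genes were called in Tyr-NrasQ61K and MHCII-KO against WT. Leaving out 1 library gave 0 for Tyr-NrasQ61K against WT and 0 to 1 for MHCII-KO against WT, with 1 without Tyr-NrasQ61K replicate 2 or 3. Between the NrasQ61K groups it was 0 throughout. The difference of Gzmc minus the other 4 granzymes was -0.90 for MHCII-KO minus WT and -0.53 for Tyr-NrasQ61K minus WT, and with a pseudocount of 0.1 it was -2.996 and -1.806. Leaving out 1 library it was -1.13 to -0.58 and -0.76 to -0.21. The cause of these changes was not tested beyond the construction of each setting.

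Between the NrasQ61K groups, uncalled differences near 0 changed sign. With library weights Gzma was -0.117 and Ncr1 -0.021. Without replicate 2 of both NrasQ61K groups Gzma was -0.048 and Ncr1 -0.109. With quantile normalization Klrb1c was 0.061 and Klrk1 0.117, and with median-ratio scaling 0.026 and 0.059. Leaving out 1 library gave -0.070 to 0.402 for Gzma, -0.051 to 0.445 for Gzmm, -0.144 to 0.347 for Prf1, -0.036 to 0.329 for Ncr1, -0.267 to 0.089 for Klrb1c and -0.441 to 0.341 for Klrk1.

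Replicate numbers were not taken to pair the libraries, because not every correlation of same-numbered libraries in their deviations from the group means was over 0.1. They ran from -0.0384 to 0.332, beside -0.27 to 0.162 between different numbers, and not every library correlated best with its own number. With a replicate block the count of called genes among the 10 was 1, 1 and 0 as before, while the calls over all genes were 894 in Tyr-NrasQ61K and 777 in MHCII-KO against WT, beside 39 and 24 without it, and 7 between the NrasQ61K groups, beside 8. The calls over all genes also differed by over 1.5 times in Tyr-NrasQ61K against WT with median-ratio scaling (66) and a pseudocount of 0.1 (24), and between the NrasQ61K groups with library weights (24) and without replicate 2 of both NrasQ61K groups (14). Leaving out 1 library they were 9 to 29 for MHCII-KO against WT and 11 to 36 for Tyr-NrasQ61K against WT, both lowest without WT replicate 3. Read numbers are unknown, so values of Gzmb, Gzmc and Gzmk under 1 FPKM may rest on few reads.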
